A study of Mus musculus with 26 samples.

Results

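Cyclin-dependent kinase (CDK) inhibitors and the retinoblastoma family were followed at the RNA level across 8 populations of EML cells on 26 single-colour arrays. The members were Cdkn1a, Cdkn1b, Cdkn1c, Cdkn2a, Cdkn2b, Cdkn2c, Cdkn2d, Rb1, Rbl1 and Rbl2, taken by gene symbol with every probe of each. They account for 10 of the 18378 gene symbols and 14 of the 41174 probes on the arrays, with 3 probes for Cdkn1b, 2 each for Rb1 and Rbl2, and 1 for each of the other members. EML is a mouse haematopoietic progenitor line that was immortalised with a dominant-negative retinoic acid receptor and depends on stem cell factor, so all populations come from 1 line and carry that receptor. Their medium held horse serum and medium conditioned with stem cell factor. The first array set held sorted fractions of growing cells, with 3 arrays for each of Sca1hi, CR Sca1lo and EryCP. In the second were EryCP cells measured again (EryCP repeat) and Ediff, the CD34-negative and cKit-negative cells obtained from EryCP by differentiation under erythropoietin (Epo), with 3 arrays each. On the third set were 4 arrays of CD34- CD103- cells, 4 of CD34+ CD103- cells, and 3 of CD34- CD103- cells after Epo (CD34- CD103- Epo). Epo was given there for erythroid differentiation, but 0 of 10 erythroid markers were called higher with it and 1 lower. The sample titles of the third set read EMLe2 and those of the other sets EML. These titles do not say whether EMLe2 is a subline or another experiment. Sca1 is encoded by Ly6a, cKit by Kit and CD103 by Itgae. Neither the dose of Epo nor the time under it is stated in the sources used here.

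The retinoblastoma protein and its relatives p107 (Rbl1) and p130 (Rbl2) bind E2F factors and hold back the genes that E2F drives in S phase, until kinases of cyclin D and cyclin E phosphorylate them. Inhibitors of the Cip/Kip class, p21 (Cdkn1a), p27 (Cdkn1b) and p57 (Cdkn1c), bind complexes of cyclins with CDKs, and those of the Ink4 class, p16 (from Cdkn2a, which also encodes Arf), p15 (Cdkn2b), p18 (Cdkn2c) and p19 (Cdkn2d), bind the CDK4 and CDK6 subunits. In the red cell lineage, terminal maturation couples a last series of rapid divisions to exit from the cycle, and loss of Rb1 in mice impairs late erythroid maturation.

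To show what regulatory sequence stands before the members that changed or that belong beside them, the 250 bases before the annotated start are printed for 5 of them, from RefSeq on GRCm38.p6, 5′ to 3′ on the strand of the gene. Capitals mark matches to the motifs searched. Cdkn1a lies at chr17:29090729-29090978 on the plus strand, Cdkn1b at chr6:134920151-134920400 on the plus strand, Cdkn2c at chr4:109666757-109667006 on the minus strand, Rbl1 at chr2:157204535-157204784 on the minus strand and Rbl2 at chr8:91069807-91070056 on the plus strand. Cdkn1a and Cdkn2c have 2 annotated starts each, and the upstream one is shown.
Cdkn1a: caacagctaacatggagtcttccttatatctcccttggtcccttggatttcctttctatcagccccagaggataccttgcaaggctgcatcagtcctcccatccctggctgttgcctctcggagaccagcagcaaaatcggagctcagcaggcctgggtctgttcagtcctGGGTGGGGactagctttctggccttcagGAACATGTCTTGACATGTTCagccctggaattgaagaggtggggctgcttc
Cdkn1b: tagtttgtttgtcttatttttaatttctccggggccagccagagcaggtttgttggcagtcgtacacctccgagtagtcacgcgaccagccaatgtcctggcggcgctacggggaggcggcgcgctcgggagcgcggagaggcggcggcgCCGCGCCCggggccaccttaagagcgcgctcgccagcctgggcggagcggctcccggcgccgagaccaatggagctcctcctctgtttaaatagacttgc
Cdkn2c: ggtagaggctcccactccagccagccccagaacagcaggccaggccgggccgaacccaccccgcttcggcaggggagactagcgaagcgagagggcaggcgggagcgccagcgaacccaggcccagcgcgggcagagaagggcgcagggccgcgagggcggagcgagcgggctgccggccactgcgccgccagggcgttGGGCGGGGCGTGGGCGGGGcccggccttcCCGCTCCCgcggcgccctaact
Rbl1: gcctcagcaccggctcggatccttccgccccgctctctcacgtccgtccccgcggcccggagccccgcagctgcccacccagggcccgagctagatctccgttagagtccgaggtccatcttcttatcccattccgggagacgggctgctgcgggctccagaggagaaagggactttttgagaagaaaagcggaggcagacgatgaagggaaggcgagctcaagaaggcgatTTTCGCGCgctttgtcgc
Rbl2: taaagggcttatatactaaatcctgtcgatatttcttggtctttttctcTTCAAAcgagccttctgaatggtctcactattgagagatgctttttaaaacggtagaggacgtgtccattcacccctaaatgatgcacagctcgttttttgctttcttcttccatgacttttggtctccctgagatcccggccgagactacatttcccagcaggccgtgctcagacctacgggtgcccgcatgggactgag
Of the 10 members, 8 matched an entry, with 11 promoters in all. Rb1 and Cdkn1c had no entry and were not searched. The motifs, searched on both strands, were the p53 response element by name (20 bases, at most 1 mismatch), E2F as TTTCGCGC, TTTCCCGC and TTTGGCGC, GATA as AGATAA and TGATAA, the E-box CACGTG, the cell cycle homology region TTTGAA, KLF as CCNCNCCC, FOXO as GTAAACA and STAT as TTCNNNGAA. KLF matches could overlap each other, and no match in a member overlapped one to another motif. The p53 element was matched in Cdkn1a alone among the 8 members searched, from 51 to 32 bases before its upstream start and not before its other start. It was matched in 0.0761% of 32851 promoters of the same length. TTTCGCGC was matched in Rbl1, from 18 to 11 bases before the start, and in 0.256% of all promoters. TTTCCCGC was matched in 1 promoter of Cdkn2a (0.895% of all), TTTGAA in Cdkn2b and Rbl2 (16% of all) and CCNCNCCC in Cdkn1a, Cdkn1b, Cdkn2a, Cdkn2b, Cdkn2c and Cdkn2d (45.9% of all). A member counts here if any of its promoters matched, while the shares are of single promoters. G and C made up 42.8% to 78.4% of the bases of the 11 member promoters, beside a median of 52.4% for all promoters. None of the 8 members searched had TTTGGCGC (0.417% of all), AGATAA (9.99%), TGATAA (7.94%), CACGTG (6.02%), GTAAACA (3.17%) or TTCNNNGAA (7.02%) in this window. That says only that these letters are not in these bases.

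Levels are log2 signals relative to the 75th percentile of the array, which is 0, a difference of 1 is a 2-fold difference, and ± is the standard error of a difference. Calls are limma differences whose p, adjusted by Benjamini-Hochberg over all genes and unnamed probes tested in a set, is under 0.05. Over the 26 arrays, the processed signal at the 75th percentile ran from 425.3 to 1247, and 76.16% to 93.94% of probes were well above background. Slide 2 of the first set stood apart, with 91.46% to 93.94% against 80.52% to 87.14% on its other slides. Levels are compared within an array set only, since sets lie on different slides. The labels do not say that the arrays of a group came from separate cultures, so p-values measure only the spread between these samples. Fewer cells of a type and less RNA per cell cannot be told apart in such bulk samples.

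Rb1 was the member that differed most often. It was 3.2-fold higher in EryCP than in CR Sca1lo, 1.97-fold higher in EryCP than in Sca1hi, 3.3-fold higher in Ediff than in EryCP repeat, 1.89-fold higher in CD34- CD103- than in CD34+ CD103- cells, and 1.58-fold higher in CD34- CD103- Epo than in CD34+ CD103- cells, the last of which was not called with scaling on spike-in RNA (0.24 on the log2 scale, adjusted p = 0.278). These values are of the brighter Rb1 probe. The other Rb1 probe was not called in EryCP against CR Sca1lo (0.50, adjusted p = 0.707) or against Sca1hi (0.51, adjusted p = 0.682). In Ediff, Cdkn2c, Cdkn1a and Cdkn1b were also called higher and Rbl2 and Cdkn2d lower, but when arrays were scaled on spike-in RNA the calls of Cdkn2c (0.26, adjusted p = 0.201), Cdkn1a (0.12, adjusted p = 0.551) and Cdkn1b (−0.01, adjusted p = 0.962) were lost. With normexp background correction no member was called in Ediff or in EryCP against the other fractions of the first set. After Epo in the third set, no member passed the test against the CD34- CD103- cells. All but Cdkn2a, which was not well above background on 23 of 26 arrays, could be tested in every comparison.

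**Figure D1:**
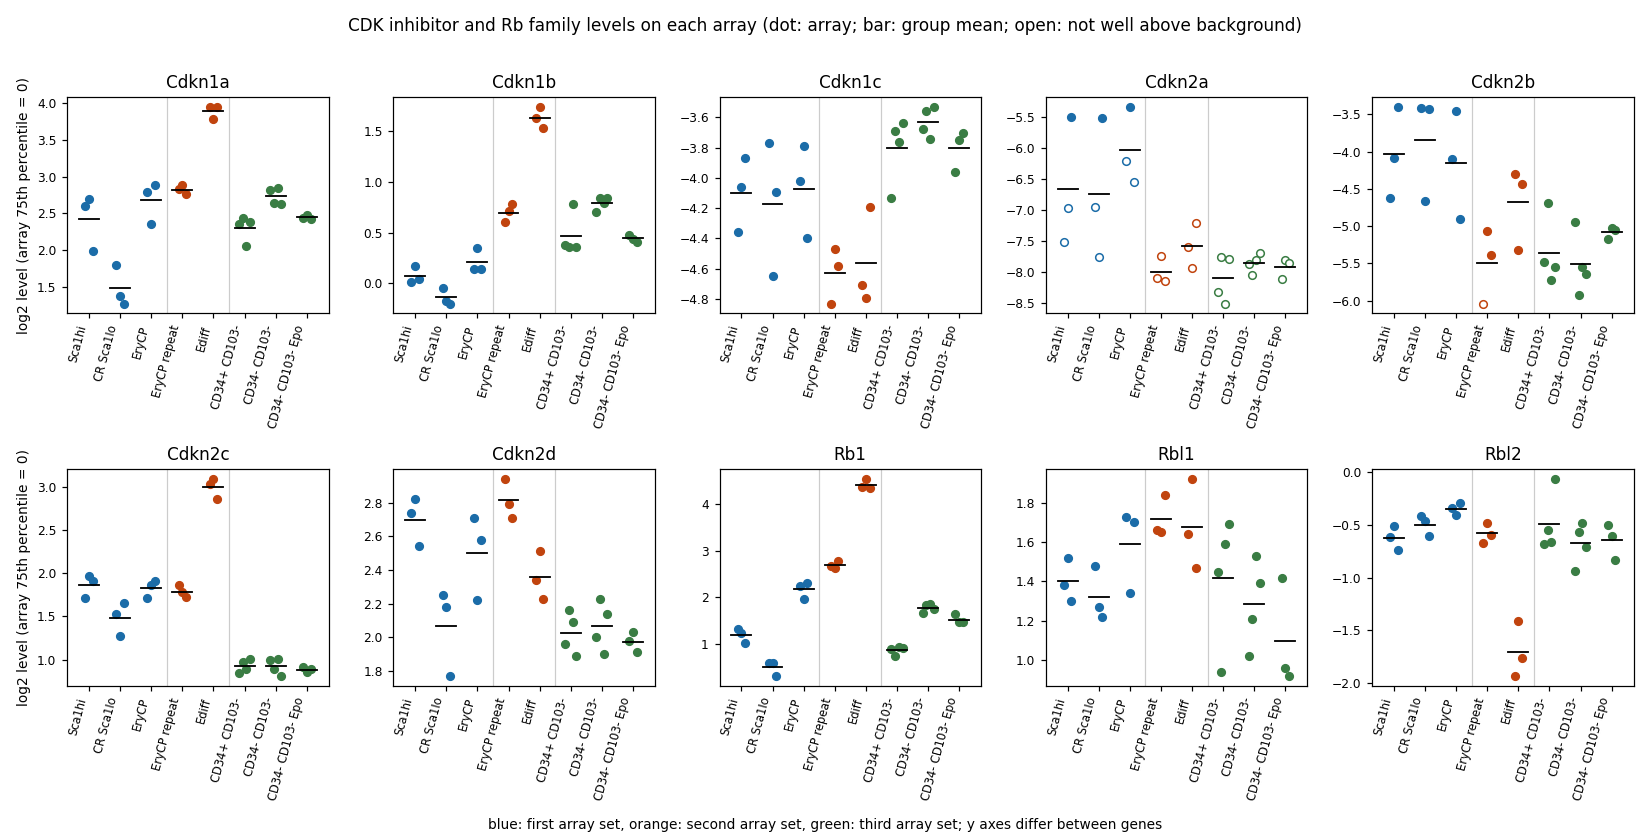
Log2 level of each member's brightest probe (y axes, array 75th percentile at 0, differing between genes) on each of 26 arrays, by population (x axes), with group means as bars and open dots for signals not well above background. Colours mark the 3 array sets, between which levels are not compared, and within its set Rb1 is highest in Ediff (4.34 to 4.54 against 2.62 to 2.78) and lowest in CR Sca1lo (0.31 to 0.59).

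In counts, 0 of 9 tested members were called in CR Sca1lo against Sca1hi, where limma called 3.59% of 26465 genes. Of these 9, 4 had an unadjusted p under 0.05 (Rb1, Cdkn1a, Cdkn2d and Cdkn2c), as had 13.2% of all genes, and 3 were called with the slide as a block, which called 17.7% of all genes. The groups did not overlap for 5 of 9 members, against 18.6% of all genes. In EryCP against CR Sca1lo 2 of 9 were called, both higher (4.95% of all genes called, 2.7% higher and 2.26% lower), and 5 did not overlap (18.1% of all genes). In EryCP against Sca1hi 1 of 9 was called, higher (6.39% of all genes, 3.1% higher), and 2 did not overlap (18.9%). Comparisons of the first set share samples with each other. In Ediff against EryCP repeat 6 of 9 were called, 4 higher and 2 lower, where 56.6% of 24703 genes were called, and the same 6 did not overlap (63.3% of all genes). In the third set, CD34- CD103- against CD34+ CD103- gave 2 of 9, both higher (12.5% of 27360 genes called, 5.66% higher and 6.82% lower), and 2 did not overlap (17.1% of all genes). CD34- CD103- Epo against CD34- CD103- gave 0 of 9 (2.6% of all genes, 0.676% higher and 1.92% lower), and 3 did not overlap (19.1%). CD34- CD103- Epo against CD34+ CD103- gave 1 of 9, higher (5.52% of all genes, 2.57% higher and 2.95% lower), and 1 did not overlap (18.6%). In Epo against CD34- CD103-, with 0 calls by limma, 3 members had an unadjusted p under 0.05 (Cdkn1b, Rb1 and Cdkn1a), as had 16.5% of all genes, and 1 was called with the slide as a block, which called 3.29% of all genes. Comparisons of the third set also share samples. The median difference of the 9 members stood beside the median of all genes as follows: −0.21 against 0.03 for CR Sca1lo against Sca1hi, 0.35 against −0.07 for EryCP against CR Sca1lo, 0.14 against −0.04 for EryCP against Sca1hi, 0.82 against 0.45 in Ediff, 0.04 against −0.06 for CD34- CD103- against CD34+ CD103-, −0.17 against 0.08 for Epo against CD34- CD103-, and −0.03 against 0.02 for Epo against CD34+ CD103-.

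**Figure D2:**
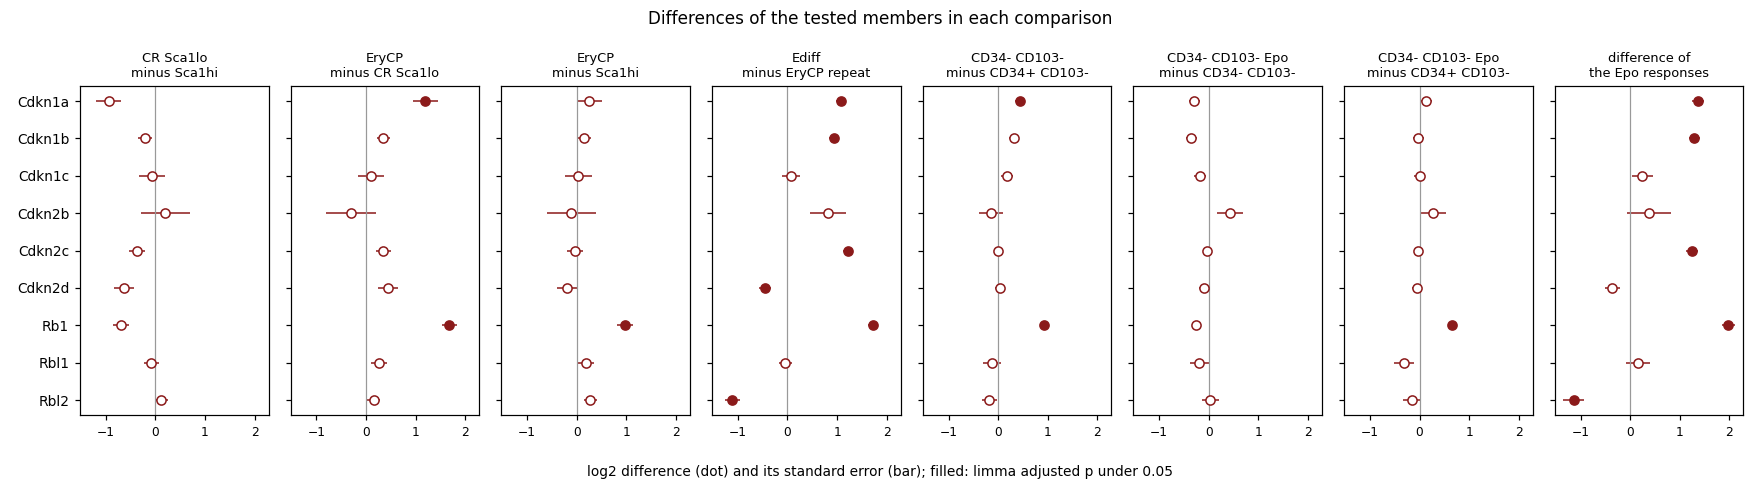
Log2 difference (x axes) of each tested member (y axis) in the 7 comparisons within array sets and in the difference of the Epo responses, with standard errors as bars and filled dots where the limma adjusted p was under 0.05. Rb1 is filled to the right of 0 in 5 of the 7 comparisons within sets, and Rbl2 is filled to the left in Ediff, while the Ediff differences of Cdkn1a, Cdkn1b and Cdkn2c lie at 0.12, −0.01 and 0.26 after spike-in scaling and are then not called.

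Markers of lineages moved with these comparisons. In EryCP against CR Sca1lo 7 of 10 erythroid markers and 6 of 8 mast cell and basophil markers were called higher. The summed level of a list is the log2 of its summed linear signals, so its brightest genes set it. For the mast cell and basophil markers it was 9.44 to 9.94 in EryCP, 7.38 to 7.89 in CR Sca1lo and 7.71 to 8.3 in Sca1hi. Cpa3 alone read 7.42 to 7.96, 7.34 to 7.86 and 7.49 to 8.15 in these groups. In Ediff all 10 erythroid markers were called higher (summed level 9.69 to 9.73 against 4.94 to 5.37) and 7 of 8 mast cell and basophil markers lower (3.53 to 3.9 against 9.69 to 9.9), and the sorting marker Kit was at −3.31. Cd34 was not well above background on any of the 3 Ediff arrays and was at least 78-fold lower there than in EryCP repeat (adjusted p = 1.77e-05), a bound taken against the lowest signal well above background on each Ediff array. In CD34- CD103- against CD34+ CD103- cells 7 erythroid and 6 mast cell and basophil markers were called higher, with summed levels of 2.81 to 3.32 against 0.3 to 0.76 and of 9.7 to 9.77 against 8.01 to 8.22. Summed neutrophil markers were 4.17 to 4.52 in CD34- CD103-, −0.31 to 0.2 in CD34+ CD103- and −1.48 to 0.27 in CD34- CD103- Epo cells. Of 5 such markers, 2 were called higher in CD34- CD103- than in CD34+ CD103- cells, and 2 lower with Epo. The first sum was carried by S100a8 (2.43 to 2.76) and S100a9 (3.63 to 4). Ltf, Camp and Ngp were below −3 there and overlapped their levels in CD34+ CD103- cells. The 10 erythroid markers were all well above background on every array but some of Sca1hi, CR Sca1lo and CD34+ CD103-, where at least 8 were. Megakaryocyte markers also moved, with 3 of 5 called higher in CR Sca1lo than in Sca1hi (summed level 4.27 to 4.71 against 3.45 to 4.1), and 3 called lower and 1 higher in Ediff (4.21 to 4.5 against 5.11 to 5.44), where Ppbp was at −3.73. In EryCP 2 of 4 neutrophil markers were called higher than in CR Sca1lo, S100a8 at 4.24 and S100a9 at 4.49. With Epo in the third set 6 of 8 mast cell and basophil markers were called lower than in CD34- CD103- cells (8.6 to 8.62 against 9.7 to 9.77). Of 10 erythroid markers 0 were called higher there and 1 lower, with summed levels of 2.35 to 2.67 against 2.81 to 3.32. Cd34 read 5.48 to 5.89 with Epo and 4.59 to 5.25 without, a difference that was not called. In Ediff 3 of 4 macrophage markers (Csf1r 3.14, C1qb 1.2 and C1qa 0.58; summed level 1.23 to 1.58 against −0.51 to −0.19), 3 of 4 B cell markers (−0.99 to −0.42 against −1.48 to −0.99) and 2 of 3 stroma markers (0.13 to 0.62 against −0.44 to −0.24) were called higher. With the spike-in, of these only Csf1r was called higher (2.19), and the other macrophage, B cell and stroma markers lay between −0.64 and 0.25. Of 4 T cell markers 1 was called higher and 2 lower in Ediff, with summed levels of −0.1 to 0.47 against −0.17 to 0.25. Itgae, which encodes CD103, was 1.53 higher in CD34- CD103- than in CD34+ CD103- cells although both are sorted as CD103-negative. The part of these markers in the results on the members was not tested.

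Cdkn1a, which encodes p21 and is the textbook target of p53, was lowest in CR Sca1lo. Its levels were 2.60, 2.69 and 1.99 on the 3 Sca1hi arrays, 1.80, 1.38 and 1.27 in CR Sca1lo, and 2.79, 2.36 and 2.88 in EryCP. All CR Sca1lo arrays were below all others of the set, and Sca1hi and EryCP overlapped. EryCP exceeded CR Sca1lo by 1.19 ± 0.25 (2.28-fold, adjusted p = 0.0329), a call that was lost with the spike-in (1.16, adjusted p = 0.0903) and in 5 of the 6 fits that left out an array of these groups (CR Sca1lo 1, 2 or 3, EryCP 1 or 3), with differences of 1.35, 1.14, 1.08, 1.13 and 1.09 and adjusted p of 0.0549 to 0.142. The difference between CR Sca1lo and Sca1hi, −0.94 ± 0.25, missed the threshold (adjusted p = 0.099) and passed it with the slide as a block (adjusted p = 0.00377). Within slides it was −1.22, −0.72 and −0.89.

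In the second set Cdkn1a stood at 3.95, 3.79 and 3.95 in Ediff and at 2.83, 2.88 and 2.76 in EryCP repeat, without overlap. The difference was 1.07 ± 0.095 (2.1-fold, adjusted p = 0.000288), and 1.07 and 0.99 within the slides. With the spike-in it was 0.12 and not called (adjusted p = 0.551). In the third set the 4 CD34- CD103- arrays (2.82, 2.64, 2.85, 2.62) were all above the 4 CD34+ CD103- arrays (2.35, 2.43, 2.05, 2.38), with a difference of 0.43 ± 0.098 (1.35-fold, adjusted p = 0.0154) that was not called with the spike-in (0.22, adjusted p = 0.216). With Epo the levels were 2.43, 2.48 and 2.42, all below those of the CD34- CD103- arrays. That difference of −0.29 ± 0.11 was not called (adjusted p = 0.208), and with the slide as a block it was −0.41 with an adjusted p of 0.0115. Within the slides that hold both groups it was −0.39 and −0.38.

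Cdkn1b encodes p27, an inhibitor of CDK2 that is removed by the ubiquitin ligase SCF with Skp2. Its brightest probe read 1.63, 1.74 and 1.53 in Ediff against 0.60, 0.71 and 0.78 in EryCP repeat, without overlap. The difference was 0.94 ± 0.1 (1.92-fold, adjusted p = 0.000661), and −0.01 with the spike-in (adjusted p = 0.962). In the first set the levels of this probe were close together, from −0.20 to 0.35 over the 9 arrays. EryCP minus CR Sca1lo was 0.35 ± 0.14 (adjusted p = 0.273), and 0.0381 was the adjusted p with the slide as a block. In the third set it read 0.70, 0.84, 0.79 and 0.84 in CD34- CD103- cells and 0.38, 0.36, 0.78 and 0.36 in CD34+ CD103- cells, so that 1 array of the latter lay within the range of the former. The difference of 0.32 ± 0.1 missed the threshold (adjusted p = 0.0616). It was 0.27 with the slide as a block (adjusted p = 0.0408) and 0.43 without the high array, CD34+ CD103- 3 (adjusted p = 0.00338). With Epo the probe read 0.48, 0.44 and 0.41, below every CD34- CD103- array, and this difference of −0.35 ± 0.11 was not called (adjusted p = 0.134).

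Cdkn1c encodes p57, the imprinted Cip/Kip inhibitor known from quiescent stem cells. Its signal was well above background on all 26 arrays but low, from −4.83 to −3.53. Groups overlapped in every comparison, and its differences of −0.17 to 0.18 were not called.

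Among the Ink4 genes, Cdkn2c, which encodes p18, differed mainly in Ediff. It stood at 3.03, 3.09 and 2.86 in Ediff and at 1.86, 1.78 and 1.72 in EryCP repeat. The arrays did not overlap, and the difference was 1.21 ± 0.1 (2.31-fold, adjusted p = 0.000242), or 1.17 and 1.29 within slides, and with the spike-in it was 0.26 and not called (adjusted p = 0.201). In the first set it read 1.71, 1.97 and 1.91 in Sca1hi, 1.53, 1.27 and 1.65 in CR Sca1lo, and 1.71, 1.86 and 1.91 in EryCP. CR Sca1lo was again the lowest group without overlap, but −0.38 ± 0.16 against Sca1hi (adjusted p = 0.339) and 0.35 ± 0.16 from CR Sca1lo to EryCP (adjusted p = 0.383) were not called. All 11 arrays of the third set lay between 0.81 and 1.01, and the differences there were between −0.04 and 0.

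Cdkn2d, which encodes p19 of the Ink4 class, was called lower in Ediff. Its levels were 2.34, 2.51 and 2.23 there and 2.94, 2.79 and 2.71 in EryCP repeat, without overlap. The difference was −0.45 ± 0.12 (1.37-fold lower, adjusted p = 0.0189), and it lost the call without Ediff 1 (−0.44, adjusted p = 0.0597), Ediff 3 (−0.39, 0.067) or EryCP repeat 1 (−0.39, 0.0772). In the first set it read 2.74, 2.82 and 2.54 in Sca1hi, 2.25, 2.18 and 1.77 in CR Sca1lo, and 2.71, 2.22 and 2.58 in EryCP. CR Sca1lo lay below Sca1hi on every array and overlapped EryCP. The difference from Sca1hi, −0.63 ± 0.2, was not called (adjusted p = 0.164) but was with the slide as a block (adjusted p = 0.0027), as was the 0.44 ± 0.2 from CR Sca1lo to EryCP (adjusted p = 0.38, and 0.00848 with the block). All arrays of the third set lay between 1.89 and 2.23, with differences of −0.09 to 0.04 that were not called.

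The neighbouring genes Cdkn2a and Cdkn2b, which encode p16, Arf and p15, gave weak signals. Cdkn2a was well above background on 3 of 26 arrays, and these were the 3 arrays of slide 2 in the first set, with 1 array each of Sca1hi (−5.49), CR Sca1lo (−5.51) and EryCP (−5.33). The other 23 arrays lay between −8.51 and −6.2 and were not well above background, so the gene was not tested in any comparison. Cdkn2b was well above background on all arrays but 1 of EryCP repeat, between −6.04 and −3.40. Its largest difference, 0.82 ± 0.36 in Ediff, was not called (adjusted p = 0.0955) and passed only without Ediff 2 (1.13, adjusted p = 0.0252). On slide 2 its 3 arrays of the first set read −3.40, −3.43 and −3.45, at or near the top of each group.

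Rb1 itself encodes the retinoblastoma protein. Its brightest probe read 1.32, 1.23 and 1.02 in Sca1hi, 0.59, 0.58 and 0.31 in CR Sca1lo, and 2.24, 1.97 and 2.31 in EryCP. The 3 groups did not overlap, with CR Sca1lo lowest and EryCP highest. EryCP exceeded CR Sca1lo by 1.68 ± 0.16 (adjusted p = 0.000681) and Sca1hi by 0.98 ± 0.16 (adjusted p = 0.00954). The second of these lost the call without EryCP 1 (0.95, adjusted p = 0.0504) or Sca1hi 2 (1.00, adjusted p = 0.0504). CR Sca1lo against Sca1hi, −0.70 ± 0.16, was not called (adjusted p = 0.0635) and was with the slide as a block (adjusted p = 0.000985). Within the 3 slides it was −0.74, −0.71 and −0.65, and EryCP minus CR Sca1lo was 1.73, 1.65 and 1.65. Without slide 2, which stood apart, the 3 calls of the first set held, with 1.69 for Rb1 in EryCP minus CR Sca1lo (adjusted p = 0.00825), 1.00 for Rb1 in EryCP minus Sca1hi (adjusted p = 0.0235) and 1.24 for Cdkn1a in EryCP minus CR Sca1lo (adjusted p = 0.0455).

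From EryCP repeat to Ediff, Rb1 went from 2.68, 2.62 and 2.78 to 4.38, 4.54 and 4.34. The difference of 1.72 ± 0.1 (adjusted p = 5.34e-05) was the largest of the members, and it was 1.74 and 1.81 within slides and 0.77 with the spike-in (adjusted p = 0.00258). In the third set Rb1 stood at 1.67, 1.84, 1.86 and 1.74 in CD34- CD103- cells, 0.88, 0.73, 0.93 and 0.90 in CD34+ CD103- cells, and 1.64, 1.46 and 1.46 with Epo. The CD34+ CD103- arrays were lowest, and the Epo arrays lay between both other groups without overlap. CD34- CD103- exceeded CD34+ CD103- by 0.92 ± 0.081 (adjusted p = 2.9e-05) and by 0.79, 1.05 and 0.87 within slides. Epo cells exceeded CD34+ CD103- cells by 0.66 ± 0.087 (adjusted p = 0.00147), a call lost with the spike-in (0.24, adjusted p = 0.278), while −0.26 ± 0.087 against CD34- CD103- was not called (adjusted p = 0.176).

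Of the relatives of Rb1, Rbl2, which encodes the p130 protein of resting cells, fell in Ediff. It read −1.93, −1.41 and −1.76 there and −0.67, −0.48 and −0.60 in EryCP repeat, without overlap. The difference was −1.11 ± 0.15 (2.16-fold lower, adjusted p = 0.00175), and within the slides it was −1.36 and −0.77. On the 9 arrays of the first set it lay between −0.74 and −0.30 and on the 11 of the third between −0.94 and −0.07, with no difference called. EryCP minus Sca1hi, 0.27 ± 0.13, passed with the slide as a block (adjusted p = 0.452, and 0.0334 with the block). Rbl1, which encodes p107 and is itself driven by E2F, lay between 0.92 and 1.92 on all arrays and was called in no comparison. Its Ediff difference was −0.04 ± 0.14 (adjusted p = 0.821), with 1.64, 1.92 and 1.47 in Ediff against 1.66, 1.65 and 1.84 in EryCP repeat.

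**Figure D3:**
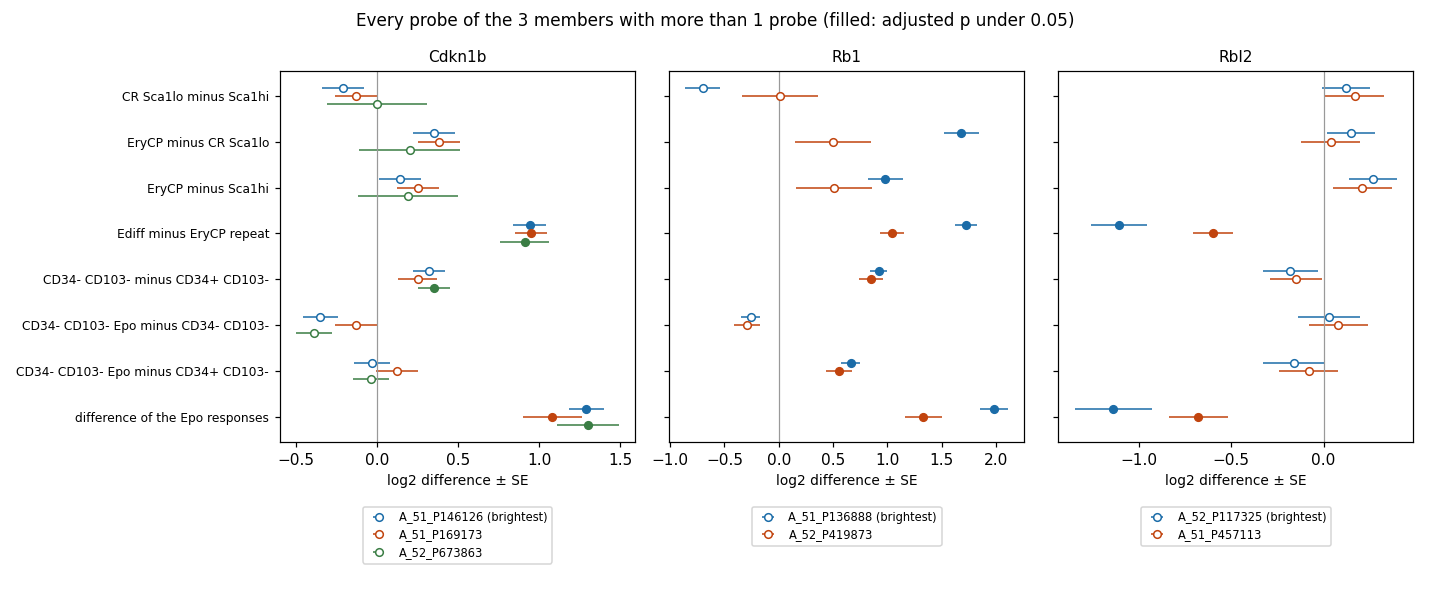
Log2 difference with its standard error (x axes) for every probe of Cdkn1b, Rb1 and Rbl2, by comparison (y axis), filled where the adjusted p was under 0.05. In Ediff against EryCP repeat all 7 probes are filled, to the right for Cdkn1b and Rb1 and to the left for Rbl2, though after spike-in scaling the brightest Cdkn1b probe is at −0.01.

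Probes of the same gene, fitted with p adjusted over all kept probes, gave the same direction in Ediff but not always the same size. The dimmer Rb1 probe, with levels of −5.17 to −2.05, showed 1.04 ± 0.11 in Ediff (adjusted p = 0.000581), 0.85 ± 0.11 in CD34- CD103- against CD34+ CD103- (adjusted p = 0.000446) and 0.55 ± 0.12 in Epo against CD34+ CD103- (adjusted p = 0.0206). In the first set it did not repeat the calls of the brighter probe, with 0.50 ± 0.35 for EryCP minus CR Sca1lo (adjusted p = 0.707), 0.51 ± 0.35 for EryCP minus Sca1hi (adjusted p = 0.682) and 0.01 ± 0.35 for CR Sca1lo minus Sca1hi (adjusted p = 1). Its standard error there was 0.35, against 0.16 for the brighter probe. The second Rbl2 probe was at −0.60 ± 0.11 in Ediff (adjusted p = 0.00507). The other Cdkn1b probes were 0.95 ± 0.098 (adjusted p = 0.000491) and 0.91 ± 0.15 (adjusted p = 0.00337) higher in Ediff, and the dimmest of them also passed in CD34- CD103- against CD34+ CD103- (0.35 ± 0.1, adjusted p = 0.0438). The brightest Cdkn1b probe carries this name in the newer of the array's annotations only, and the dimmest in the older only.

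The size of the Ediff differences depended on how the arrays were scaled. The median difference of all genes was 0.45 with centring on the 75th percentile and −0.49 with scaling on the spike-in RNA. With the spike-in, Rb1 was still called higher, Cdkn2c, Cdkn1a and Cdkn1b were not called, and Rbl2 (−2.06), Cdkn2d (−1.40), Rbl1 (−0.99, adjusted p = 0.00195) and Cdkn1c (−0.88, adjusted p = 0.0181) were called lower. These scalings differ by 1 constant per array, so differences relative to the median of all genes are identical by construction and say nothing on stability: 1.27 for Rb1, 0.75 for Cdkn2c, 0.62 for Cdkn1a, 0.48 for Cdkn1b, 0.36 for Cdkn2b, −0.39 for Cdkn1c, −0.49 for Rbl1, −0.91 for Cdkn2d and −1.57 for Rbl2. With normexp background correction 0 members and 235 genes in all were called in Ediff, where Rb1 was at 1.34 and Rbl2 at −0.33. In the third set the spike-in moved the median of all genes from −0.06 to −0.27 for CD34- CD103- against CD34+ CD103-, from 0.08 to −0.13 for Epo against CD34- CD103- and from 0.02 to −0.40 for Epo against CD34+ CD103-. Rb1 kept its call in the first of these (0.71, adjusted p = 0.0169). In the first set Rb1 in EryCP against CR Sca1lo was 1.65 (adjusted p = 0.00365) with the spike-in.

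**Figure D4:**
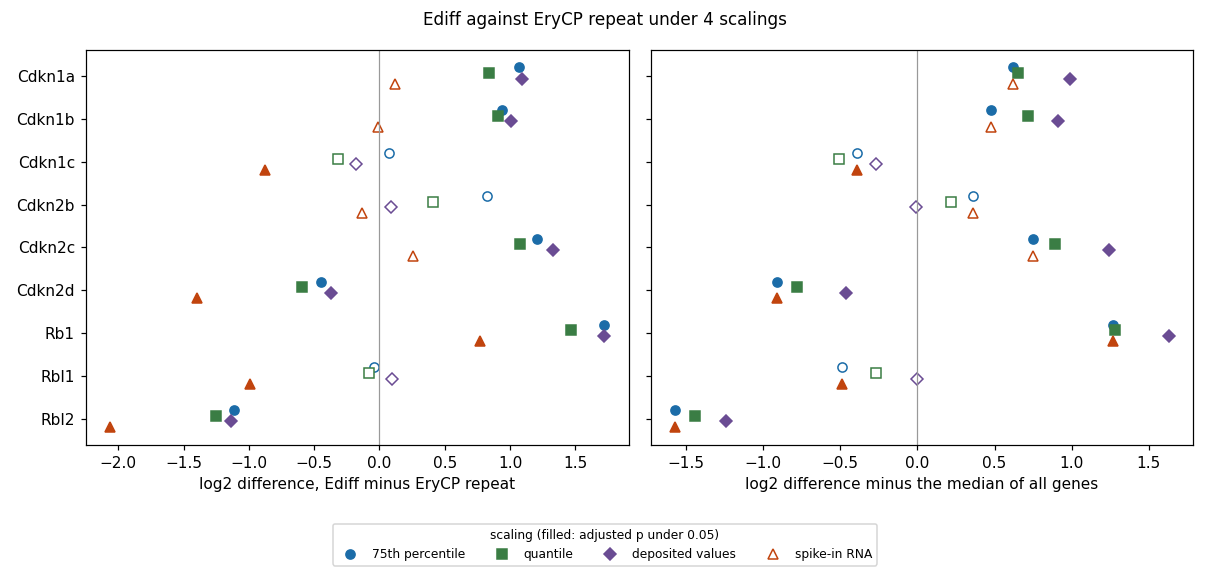
Log2 difference of Ediff minus EryCP repeat for the 9 tested members under 4 scalings (left), and the same minus the median of all genes under that scaling (right), filled where the adjusted p was under 0.05. On the left the spike-in values lie below the others for every member, with Cdkn1b at −0.01, and on the right Rb1 is highest (1.27) and Rbl2 lowest (−1.57) for the 75th percentile and the spike-in, which are identical there by construction.

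Epo was used on EryCP, giving Ediff, and on CD34- CD103- cells, and the responses were set against each other as Ediff minus EryCP repeat less Epo minus CD34- CD103-. Of 9 members 5 were called in this difference, 4 higher and 1 lower, where 37.8% of 27291 genes were called, 23.6% higher and 14.3% lower. The response was more positive in the EryCP series for Rb1 (1.98 ± 0.13, adjusted p = 2.67e-07), Cdkn1a (1.36 ± 0.12, adjusted p = 4.43e-06), Cdkn1b (1.29 ± 0.11, adjusted p = 3.84e-06) and Cdkn2c (1.25 ± 0.12, adjusted p = 7.93e-06). It was more negative for Rbl2 (−1.14 ± 0.21, adjusted p = 0.00133). With the spike-in the differences were 1.24 for Rb1, 0.62 for Cdkn1a (adjusted p = 0.0481), 0.55 for Cdkn1b (adjusted p = 0.0893), 0.51 for Cdkn2c (adjusted p = 0.102) and −1.88 for Rbl2. Cdkn2d, at −0.36 ± 0.15, missed the threshold (adjusted p = 0.0824) and passed it with the slide as a block (−0.43, adjusted p = 0.0316) or without Ediff 2 (−0.43, adjusted p = 0.036). The responses were measured in different array sets, and Ediff cells were sorted as cKit-negative, so the array set, the sort and the starting cells cannot be told apart in this contrast.

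EryCP was hybridised in both the first and the second set. The brightest Rb1 probe averaged 2.17 and 2.70, Cdkn1a 2.68 and 2.82, Cdkn2c 1.83 and 1.79, and the brightest Cdkn1b probe 0.21 and 0.70, while the other Cdkn1b probes went from −1.94 to −2.85 and from −3.78 to −5.18. Over 23830 genes the median offset of the second set was −0.35, with quartiles of −1.03 and 0.34. Measurement in another set and a change in the cells cannot be told apart in these offsets.

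Genes of the surrounding pathway, in lists taken up with earlier results of these data known, also moved in Ediff. Of 10 G1 cyclins and CDKs 4 were called higher and 2 lower (39.8% and 16.8% of all genes), with Ccnd1, the cyclin D1 that partners CDK4 and CDK6, at −3.99 ± 0.21, Cdk6 at −2.44 ± 0.091 and Ccnd3, the cyclin D of late erythroid cells, at 1.84 ± 0.12. Of 10 E2F and DP factors 6 were called higher and 0 lower, led by E2f2 (2.41 ± 0.13), its partner Tfdp2 (1.69 ± 0.1) and E2f4 (1.64 ± 0.13), which is needed for red cell formation. These 6 genes kept their direction with the spike-in (Ccnd1 −4.94, Cdk6 −3.39, Ccnd3 0.89, E2f2 1.47, Tfdp2 0.74, E2f4 0.69). The counts of their lists did not hold with it. It gave 2 higher and 7 lower for the G1 cyclins and CDKs, and 3 higher and 5 lower for the E2F and DP factors. Of 15 E2F target genes of S phase 10 were called higher and 1 lower, with Cdc6, which loads the replicative helicase, at 1.24 ± 0.1, Rrm1 at 0.95 ± 0.12 and Tk1 at 0.78 ± 0.088. With the spike-in 0 of these were called higher and 7 lower, where 4.27% of all genes were called higher and 45.3% lower, and Cdc6, Rrm1 and Tk1 were at 0.30, 0 and −0.17.

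Regulators of later phases and of the inhibitors themselves were mixed. Of 9 cyclins and CDK regulators of S, G2 and M phase 7 were called higher and 1 lower, with the phosphatase gene Cdc25b at 2.99 ± 0.11, Ccnb1 at 1.31 ± 0.088 and the kinase gene Wee1 at −1.28 ± 0.11. With the spike-in these 3 were at 2.04, 0.37 and −2.23. Of 7 genes of the MuvB core, the complex that joins Rbl1 and Rbl2 in resting cells, and its partners 4 were called higher, with Mybl2 at 1.29 ± 0.092, Foxm1 at 1.1 ± 0.094 and Lin52 at 0.80 ± 0.11 (0.34, 0.15 and −0.15 with the spike-in). Of 5 genes of SCF, which removes p27, 3 were called higher and 1 lower, with Rbx1 at 0.71 ± 0.096, Skp1 at 0.45 ± 0.16 and Cks1b at 0.41 ± 0.1, all 3 below 0 with the spike-in (−0.24, −0.49 and −0.54). The 14 genes of p53 and its targets had 10 called higher and 2 lower. Btg2 and Gadd45a, which restrain growth, were at 2.42 ± 0.086 and 2.27 ± 0.12, and Perp, which encodes a membrane protein of cell junctions, was at −4.81 ± 0.14 (1.47, 1.32 and −5.76 with the spike-in). Of 12 Polycomb and other regulators of the Ink4-Arf locus 3 were called higher and 7 lower, with Id1 at 3.17 ± 0.18, Cbx7, a Polycomb protein that represses Cdkn2a, at 1.83 ± 0.17 and Kdm2b at −1.30 ± 0.12 (2.22, 0.88 and −2.25 with the spike-in). The list medians ran from −0.48 for the Polycomb list to 0.73 for the p53 list, beside 0.45 for all genes. With the spike-in, 1 gene of the S, G2 and M list was called higher and 3 lower. The MuvB and SCF lists had 0 higher and 4 lower each. The p53 list had 3 higher and 4 lower, and the Polycomb list 2 higher and 9 lower. Of all genes 4.27% were then called higher and 45.3% lower.

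**Figure D5:**
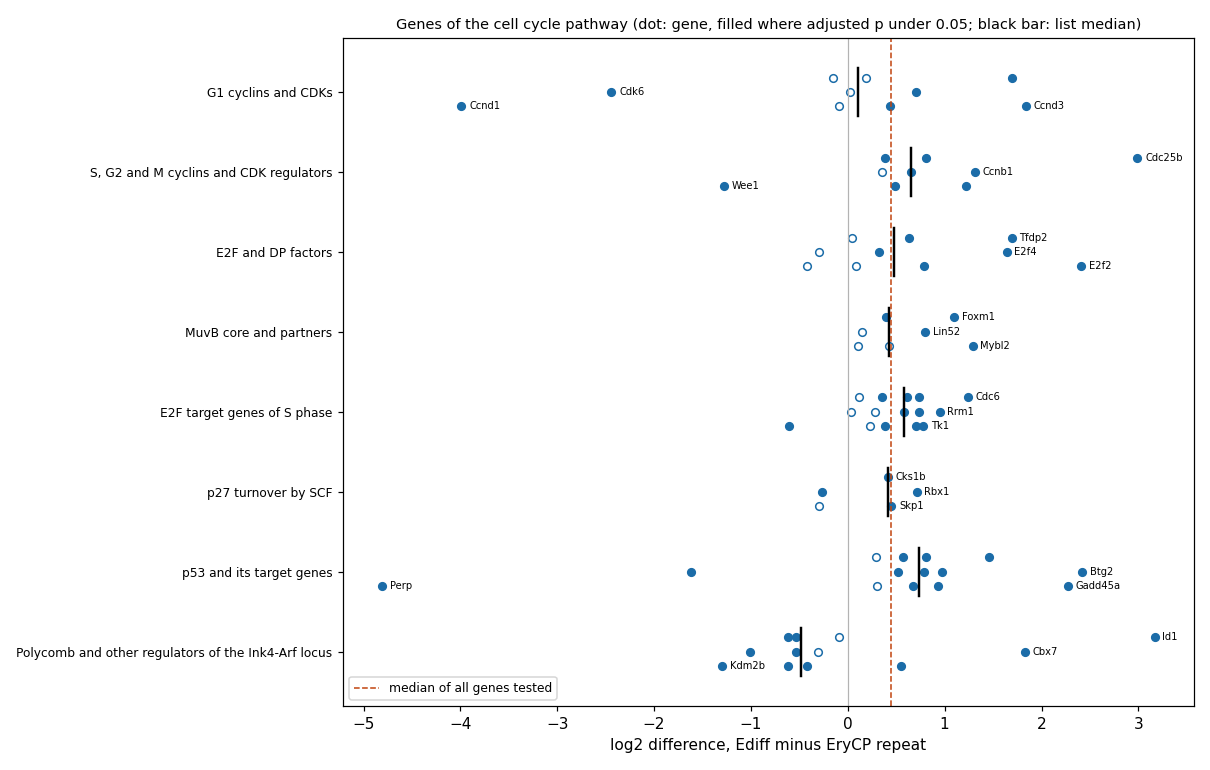
Log2 difference of Ediff minus EryCP repeat (x axis) for the tested genes of 8 pathway lists (y axis), filled where the adjusted p was under 0.05, with list medians as black bars and the median of all genes, 0.45, as a dashed line. Most filled dots lie to the right of 0 except in the Polycomb list (median −0.48), and with the spike-in, which moves the median of all genes to −0.49, 7 of the 15 S phase targets are called lower and 0 higher, beside 45.3% and 4.27% of all genes.

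In the first set 3 of the 82 list genes were called in CR Sca1lo against Sca1hi (3.66%, beside 3.59% of all genes). EryCP against CR Sca1lo gave 7 (8.54%, beside 4.95%) and EryCP against Sca1hi 6 (7.32%, beside 6.39%). E2f2 was lower in CR Sca1lo than in Sca1hi (−1.43 ± 0.15, adjusted p = 0.00193) and higher in EryCP than in CR Sca1lo (1.74 ± 0.15, adjusted p = 0.000391). Ccne1, which encodes cyclin E1, went the same ways by −0.75 ± 0.15 and 0.76 ± 0.15. Ccnd2, a cyclin D gene, was 2.01 ± 0.19 higher in CR Sca1lo and 2.00 ± 0.19 higher in EryCP than in Sca1hi. In EryCP against CR Sca1lo E2f8 (1.11 ± 0.15), Btg2 (1.23 ± 0.14) and Ets2 (0.76 ± 0.17) were called higher and Id1 (−2.19 ± 0.25) and Perp (−1.30 ± 0.17) lower. With the spike-in the call of Ets2 and both calls of Ccne1 were lost. Besides Ccnd2, EryCP against Sca1hi gave calls in 3 lists. The E2F and DP list had 1 gene called higher, the p53 list 2 higher and 1 lower, and the Polycomb list 1 lower. With the spike-in the p53 list had 1 higher and 0 lower. Between 1.21% and 3.29% of all genes were called in each direction in the comparisons of the first set.

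The third set gave smaller differences. Between CD34- CD103- and CD34+ CD103- cells E2f2 (0.83 ± 0.072, adjusted p = 2.55e-05), Ccnd2 (0.43 ± 0.11), Gadd45a (0.41 ± 0.071), Mdm2 (0.39 ± 0.1), which encodes the ligase that removes p53, and Cdc25b (0.39 ± 0.11) were called higher in CD34- CD103- cells. Perp (−0.69 ± 0.088), Id1 (−0.78 ± 0.15), Ccnf (−0.63 ± 0.14), Cdk1 (−0.54 ± 0.11), Cdk4 (−0.43 ± 0.07), Mybl2 (−0.35 ± 0.08) and E2f1 (−0.26 ± 0.073) were called lower. These 12 calls were 14.6% of the 82 list genes, beside 12.5% of all genes. With the spike-in Ccnd2, Gadd45a, Mdm2 and Cdc25b were not called higher, and the E2F and DP list had 1 gene called higher. Epo against CD34- CD103- gave 3 calls among the 82 tested genes of all lists (3.66%, beside 2.6% of all genes), Mcm5 (0.37 ± 0.08), Cdc25b (−0.65 ± 0.12) and Trp53inp1 (−0.46 ± 0.1). With the spike-in the calls of Mcm5 and Trp53inp1 were lost, and the S, G2 and M list had 1 gene called lower. Of all genes 0.0439% were then called higher and 1.87% lower. Against CD34+ CD103- cells, Epo cells had higher Ccnd2 (0.71 ± 0.12), E2f2 (0.62 ± 0.078), Gadd45a (0.46 ± 0.076) and Ccne1 (0.36 ± 0.082) and lower Id1 (−0.70 ± 0.16), Trp53inp1 (−0.51 ± 0.1) and Perp (−0.40 ± 0.095). These 7 calls were 8.54% of the 82 list genes, beside 5.52% of all genes. Of these 7 genes Ccne1 changed sign with the spike-in, to −0.06, and the others did not. None of the 4 higher calls held with the spike-in, where 0.629% of all genes were called higher and 33.9% lower.

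Over the 26 arrays, with each set centred on its own mean, the levels of Rb1 and Cdkn1a had r = 0.88, those of Rb1 and Cdkn1b 0.82, of Cdkn1b and Cdkn2c 0.82, and of Cdkn2c and Rbl2 −0.73. These values are a description, and the arrays share their scaling within a set. No member was called in both Epo comparisons, which was the condition for naming genes of like pattern. For Rb1, chosen after its values were seen, the genes of highest r among 24274 were Ublcp1, which encodes a phosphatase (0.982), Slc2a1, which encodes the glucose transporter GLUT1 (0.977), and Prkab1, which encodes a subunit of AMP-activated kinase (0.977). Without the second set the values were 0.971, 0.965 and 0.965.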

How the data were processed

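Members and gene lists were chosen with earlier results of these data known. The deposited scanner output gives the intensity of each spot on a linear scale, from Agilent Feature Extraction (10.1.1.1 in the first and second sets, 10.7.1.1 in the third, per the file headers), with 0 spots saturated. The value matrix deposited by the authors gives log2 values with no stated centring, and it served as an alternative. The background-subtracted processed signal was taken as log2, centred on the array's 75th percentile, and spots of a probe were averaged without outlier spots. Probes well above background on every array of at least 1 group, with at least 2 measured arrays per group, were kept, and a gene was represented by its brightest probe. Probes were named through RefSeq; 14103 of 41174 had no symbol and were counted singly. limma 3.58.1 fitted the groups of each set in 1 model (lmFit, eBayes, 2-sided; R 4.3.3; tables read through data.table, release 1.17.8), with Benjamini-Hochberg adjustment over all genes. The steps were tested on simulated data. The number of arrays limits the precision: the median standard error was 0.256 in the first set, 0.149 in the second and 0.135 to 0.146 in the third. The lowest correlation between arrays of a group was 0.9677, and 0 pairs were identical. Alternatives were spike-in scaling, quantile normalization, normexp with an offset of 50, the deposited values, no filter, the mean of all probes, the slide as a block, all 26 arrays in 1 fit, trend and robust eBayes, leaving out each array, and, chosen after seeing the data, leaving out slide 2 of the first set and a fit of every kept probe. Named genes were all members and, per list and comparison, up to 3 called genes with the largest difference. Of the list genes called in EryCP against Sca1hi only Ccnd2 was named, and none was named for the difference of the Epo responses. Figures used matplotlib 3.10.9 in Python 3.11.15.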

Additional observations from a re-analysis of the deposited data

Results flagged for a closer look

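In the difference of the Epo responses, which sets Ediff minus EryCP repeat against CD34- CD103- Epo minus CD34- CD103-, 5 members differed between the cell series by limma's test of the difference. The values were 1.98 for Rb1, 1.36 for Cdkn1a, 1.29 for Cdkn1b, 1.25 for Cdkn2c and −1.14 for Rbl2. In this contrast 37.8% of all genes were called, and with the spike-in Cdkn1b (0.55, adjusted p = 0.0893) and Cdkn2c (0.51, adjusted p = 0.102) were not called. The array sets, the sorts and the starting cells of both series cannot be told apart in it.

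In CD34+ CD103- cells, the brightest Cdkn1b probe read 0.78 on array 3 and 0.36 to 0.38 on the other arrays, a gap past Dixon's critical value for 4 samples. It was 1 of 28 combinations of probe and group so tested, and chance gives about 1 in 20.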

How the results depend on the processing

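By replicate number, no paired analysis was possible because the numbers in the sample titles run on over all samples and pair none of them. The slide, which in the first set holds 1 array of each group, was the block instead. The 17 calls of members were recomputed in 298 settings in all, of which 263 kept the call, 34 kept the direction without the call and 1 reversed. Of 908 settings of uncalled differences, 41 gave a call and 56 another sign. Depth here is signal over background, which limits Cdkn2a, Cdkn2b and Cdkn1c. With spike-in scaling the number of members called was 2 in Epo against CD34+ CD103- (34.6% of all genes), 1 in CD34- CD103- against CD34+ CD103- (17.3%) and 1 in EryCP against CR Sca1lo (2.77%); reversed were Cdkn1b (−0.01), Cdkn1c (−0.88) and Cdkn2b (−0.13) in Ediff, Cdkn1a (−0.28) and Cdkn2b (−0.14) in Epo against CD34+ CD103-, Cdkn1c (−0.03) and Cdkn2d (−0.17) in CD34- CD103- against CD34+ CD103-, Rbl2 (−0.18) in Epo against CD34- CD103-, and Cdkn1c (−0.50), Cdkn2b (−0.36) and Rbl1 (−0.59) in the difference of the Epo responses. With normexp 0 members were called in Ediff, EryCP against CR Sca1lo, EryCP against Sca1hi and the difference of the responses (0.951%, 0.276%, 0.37% and 2.88% of all genes); reversed were Rbl2 in the comparisons of the first set (−0.02, −0.12, −0.14), Cdkn1c in EryCP against CR Sca1lo (−0.97) and Sca1hi (−1.25), in Epo against CD34- CD103- (0.11) and in CD34- CD103- against CD34+ CD103- (−0.09), Cdkn2b in CR Sca1lo against Sca1hi (−0.09) and Epo against CD34+ CD103- (−0.21), Cdkn2c (0.28) and Cdkn2d (0.14) in EryCP against Sca1hi, Cdkn1b (0.01) in Epo against CD34+ CD103-, and Rbl1 (−0.03) in the difference of the responses. With the slide as a block 3 members of 9 were called in CR Sca1lo against Sca1hi (17.7% of all genes), 4 in EryCP against CR Sca1lo (20.2%), 2 in EryCP against Sca1hi (20.8%) and 1 in Epo against CD34- CD103- (3.29%), with Cdkn1b (0.03) reversed in Epo against CD34+ CD103- and Cdkn1c (−0.03) and Rbl1 (0.04) in Ediff. In CR Sca1lo against Sca1hi the deposited values (8.38% of all genes) and quantile normalization (6.09%) called 3, all 26 arrays 4 (11.7%), and trend and robust eBayes 2 (4.38%); in EryCP against CR Sca1lo all 26 arrays called 5 (13.5%) and no filter 1 (3.16%); in EryCP against Sca1hi the mean of probes called 0 (6.63%). The deposited values reversed Cdkn1c (−0.18) and Rbl1 (0.10) in Ediff and Cdkn2b (−0.33) in the difference of the responses, quantile normalization Cdkn1c (−0.32 in Ediff, −0.11 in the difference) and Cdkn2b (−0.02 there), and the mean of probes Cdkn1b (0.02) in Epo against CD34+ CD103-. The cause was not tested. Leaving out arrays 1 by 1 gave 1 to 2 calls in EryCP against CR Sca1lo and 0 to 1 in EryCP against Sca1hi. It gave uncalled differences of both signs for Cdkn1b in Epo against CD34+ CD103- (−0.06 to 0.08), Cdkn1c in CR Sca1lo against Sca1hi (−0.27 to 0.17), EryCP against CR Sca1lo (−0.14 to 0.30) and Sca1hi (−0.11 to 0.19) and Ediff (−0.12 to 0.18), Cdkn2b in CR Sca1lo against Sca1hi (−0.09 to 0.61), EryCP against CR Sca1lo (−0.73 to 0.07) and Sca1hi (−0.46 to 0.27) and CD34- CD103- against CD34+ CD103- (−0.34 to 0.07), Cdkn2c in EryCP against Sca1hi (−0.11 to 0.02), Cdkn2d in CD34- CD103- against CD34+ CD103- (−0.01 to 0.10), Rbl1 in Ediff (−0.16 to 0.07) and Rbl2 in Epo against CD34- CD103- (−0.06 to 0.12).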
